A study of Mus spretus with 12 samples.

Results

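The genes described here mark T cells and natural killer (NK) cells: Cd3d, Cd3e, Cd3g, Lck, Cd8a, Cd8b1, Gzma, Gzmb, Nkg7 and Klrd1. They were taken by name from the array's own annotation, with every probe that carries one of these names, which gave 10 genes and 14 probes out of 37074 gene names and 56605 probes. Of the 10 genes, 7 had a probe bright enough to be tested among 18678 genes, and Cd3g, Cd8a and Cd8b1 did not.

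RNA came from whole liver of male SPRET/EiJ mice, a wild-derived inbred strain of Mus spretus. All mice were 20 months old when feeding began and 22 months old when sampled, after 60 days, and Teklad diet and corn oil were common to every group. The control group received nothing else. For the DDE group this diet carried p,p'-DDE at 450 mg/kg, a lasting metabolite of the pesticide DDT. The DDE_PXM group had that p,p'-DDE diet too, and its water contained must of Pedro Ximenez grapes, which supplied polyphenols at 85 mg/L and an equal mixture of glucose and fructose at 31 g/L. Must without p,p'-DDE was not analysed here. Each group had 4 arrays, and the design text speaks of 4 mice for the control and must groups. The labels do not say whether each array held RNA of 1 mouse, so the p-values speak only of how arrays varied, and that variation could be technical.

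T cells recognise antigen through a receptor whose signal is carried by the CD3 chains (delta, epsilon and gamma), and the kinase Lck, held by the co-receptors CD4 and CD8, starts that signal. NK cells instead weigh activating and inhibitory receptors, many of which read MHC class I on the cell they meet. Both cell types kill with granules that hold granzymes. The liver normally holds many resident NK cells, related innate lymphocytes and T cells in its sinusoids, so their transcripts form a small part of whole-liver RNA. In such bulk RNA, fewer cells of a type and less RNA per cell cannot be told apart.

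Each value below is a probe's processed signal on the log2 scale, counted from the 75th percentile of its array, so 0 is that percentile, and values of different probes were not compared with each other. A probe was called well above background by the scanner software's own test. The lowest value that passed this test lay between -5.02 and -4.29 on the 12 arrays. A gene was called where limma gave a Benjamini-Hochberg adjusted p under 0.05 over all 18678 genes, and "rose" or "fell" is used only of called genes. Between 50.12% and 52.01% of the spots were well above background, and no spot was saturated. The 75th percentile of the signal was 535.1 ± 32.2 for control, 611 ± 46.9 for DDE and 702 ± 7.63 for DDE_PXM (mean ± SD over 4 arrays).

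The probes themselves matter here because a gene's probes did not always read alike. Each is 60 bases long, was designed on the laboratory mouse genome (mm9) and was not checked for mismatches with Mus spretus. Of the 14 probes, 4 contain AATAAA, the signal for cleavage and polyadenylation, which 9.77% of all 56605 probes contain (the reverse complement TTTATT is in 3.85% of all probes and in none of these). Of these 4, 3, for Cd3e, Lck and Gzma, gave the value used for the gene's test. The 30 bases around the signal are shown because these probes carry the values for Cd3e, Lck and Gzma and the repeat measurement of Cd3d, with the signal in capitals.
Cd3d, second probe: ctgtgatcaaccAATAAAgacgtttccttc
Cd3e, tested probe: taatgcaaaaggcAATAAAgtgtattggct
Lck, tested probe: tgcctagcacacaccaggagctcAATAAAa
Gzma, tested probe: tgtctgatcacaAATAAAatcaacttgaat

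The probes without that signal include the other probe of Cd3d, the dim probe of Lck, 1 of the Cd8a probes that stayed at background, and the Klrd1 probe. Their full sequences are given because the calls for Cd3d and Klrd1, and the missing calls for Cd8a and the dim Lck probe, rest on them. The tested Cd3d probe covers 232 bases of genome with its 60 bases. An exon annotation of mm9 was not used here, so exon and intron positions are not given.
Cd3d, tested probe: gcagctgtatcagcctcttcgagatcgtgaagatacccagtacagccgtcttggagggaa
Lck, dim probe: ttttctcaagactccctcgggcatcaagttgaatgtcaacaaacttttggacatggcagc
Cd8a, probe at background: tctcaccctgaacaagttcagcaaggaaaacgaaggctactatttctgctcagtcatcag
Klrd1, tested probe: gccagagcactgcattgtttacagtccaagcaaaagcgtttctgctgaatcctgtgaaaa

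The comparison of DDE with control addresses p,p'-DDE in the diet. Among the 7 tested T and NK markers 5 fell and none rose. Cd3d, Lck, Klrd1, Nkg7 and Gzma were between 1.26-fold and 2.07-fold lower, while Cd3e and Gzmb were not called. In this comparison 50.3% of all genes tested were called, 26.3% lower and 24% higher. The median change of the 7 was -0.46 on the log2 scale, beside -0.02 over all genes tested.

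The comparison of DDE_PXM with DDE addresses must added to p,p'-DDE. Again 5 of the 7 fell and none rose, with Cd3d, Lck, Nkg7, Gzma and Gzmb between 1.24-fold and 2.09-fold lower in DDE_PXM than in DDE. Of these, Gzmb was tested only because all DDE arrays, the higher group here, were well above background, which favours its fall. In this comparison 49.9% of all genes tested were called, 29.7% lower and 20.2% higher, and the median change was -0.44 for the 7 and -0.04 over all genes. Against control, all 7 tested markers fell in DDE_PXM, by 1.3-fold to 2.92-fold, where 70.9% of all genes tested were called, 39.3% lower and 31.6% higher. The 3 comparisons share arrays, so these counts are not independent of each other.

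**Figure D1:**
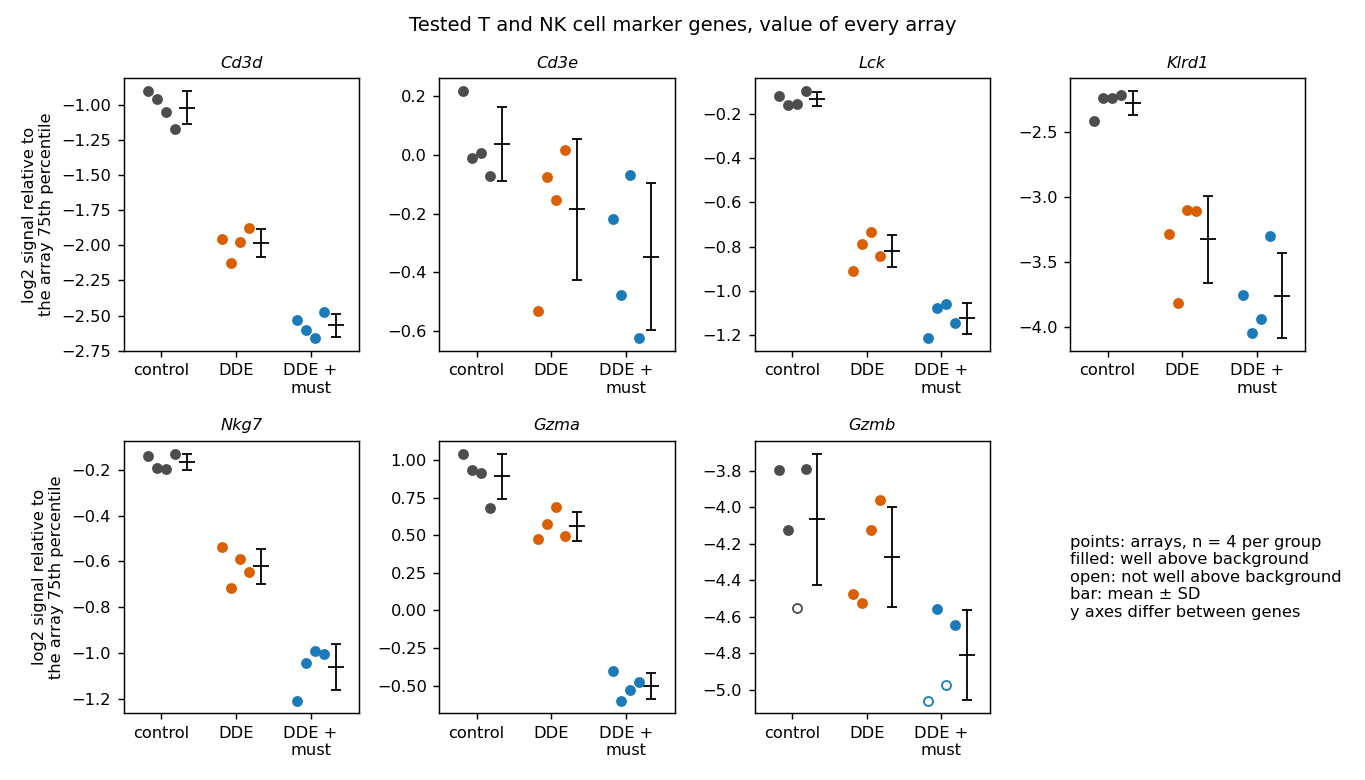
Value of every array for the 7 tested T and NK marker genes, as log2 of the signal relative to the array's 75th percentile, with 4 points per group (filled, well above background, and open, not) and bars for mean ± SD; the y axes differ between genes. For Cd3d, Lck and Nkg7 the 3 groups form separate steps from control down to DDE_PXM, for Gzma the control and DDE points overlap, and for Cd3e all 3 groups overlap.

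The CD3 chains came first in the order of signalling. Their 3 genes lie side by side on chromosome 9, and the probes fell between 44777868 (the start of the Cd3g probe) and 44807313 (the end of a Cd3e probe) in mm9. Cd3d encodes the delta chain. Its tested probe (A_51_P285206, chr9:44794171-44794402, plus strand) read -0.90, -0.96, -1.05 and -1.17 in the control arrays. It read -1.96, -2.12, -1.98 and -1.88 in DDE, and -2.53, -2.60, -2.66 and -2.48 in DDE_PXM. No array of one group reached the range of another, so Cd3d stepped down at each exposure. Groups also failed to overlap for 46.4% of all genes tested between DDE and control, for 44.7% between DDE_PXM and DDE and for 65.2% between DDE_PXM and control.

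Cd3d fell by 0.97 ± 0.07 (log2 difference ± SE, limma adjusted p = 1.05e-06), or 1.95-fold, from control to DDE. It fell by a further 0.58 (adjusted p = 5.15e-05), or 1.5-fold, from DDE to DDE_PXM. The second Cd3d probe (A_66_P109615, chr9:44794452-44794511), which begins 49 bases beyond the end of the first, gave similar steps. Its group means were -1.02 ± 0.06 in control, -2.01 ± 0.22 in DDE and -2.61 ± 0.09 with must (mean ± SD, n = 4), which are changes of -0.98 and -0.60. Both Cd3d probes were therefore called in both steps, with adjusted p = 1.21e-05 and 0.000429 for the second probe in the limma fit over 27098 probes, where 47.5% and 45.7% of probes were called (68.6% between DDE_PXM and control).

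Cd3e encodes the epsilon chain, which pairs with the delta or the gamma chain in every receptor complex. Its tested probe (A_55_P2156229, chr9:44806828-44806887, minus strand) read 0.22, -0.01, 0.01 and -0.07 in control, -0.53, -0.08, -0.15 and 0.02 in DDE, and -0.22, -0.48, -0.07 and -0.62 in DDE_PXM. The 3 groups overlapped, and a single DDE array stood low within its group. From control to DDE the difference was -0.22 (95% interval -0.53 to 0.08, limma adjusted p = 0.205). From DDE to DDE_PXM it was -0.16 (interval -0.46 to 0.14, limma adjusted p = 0.36). These intervals leave out a fall as large as the one of Cd3d.

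Over both exposures Cd3e was called lower, by 0.38 ± 0.14 (limma adjusted p = 0.0272), or 1.3-fold, but this call was lost under 6 of 23 alternatives, with adjusted p up to 0.961. Among arrays, it was lost without control replicate 1 (adjusted p = 0.0772), without DDE_PXM replicate 2 (adjusted p = 0.072) and without DDE_PXM replicate 4 (adjusted p = 0.0826). The second Cd3e probe (A_51_P455681, chr9:44807254-44807313), 366 bases away, was dim and well above background on 11 of 12 arrays. It had group means of -3.94 ± 0.28, -3.95 ± 0.07 and -3.89 ± 0.27 in control, DDE and DDE_PXM (SD, n = 4 arrays), with no call in any comparison (adjusted p = 0.991, 0.78 and 0.756 in the limma fit over probes). The tested Cd3e probe, then, did not show the steps of Cd3d. The second probe lay too near the floor, -4.54 to -4.29 on the control arrays, to show a first step of that size.

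The distance between the delta and epsilon chains was tested directly within arrays, a comparison chosen after the values were seen. The value of Cd3d minus that of Cd3e was -1.05 ± 0.08 in control, -1.80 ± 0.26 in DDE and -2.22 ± 0.31 with must (mean ± SD, n = 4). It changed by -0.74 from control to DDE and by -1.17 from control to DDE_PXM (exact permutation test, two-sided p = 0.0286 each, the smallest that 4 arrays against 4 allow, adjusted p = 0.0429 over 3 comparisons). From DDE to DDE_PXM it changed by -0.42 (exact p = 0.0857). Only the change between these 2 probes is meant, since the levels of different probes are not comparable. Because the pair was chosen from these same values, the p-values are no independent support for a difference particular to these chains. Other gene pairs were not tested.

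Cd3g encodes the gamma chain, and its only probe (A_55_P2072771, chr9:44777868-44777927, minus strand) was near background. Control arrays read -2.44, -3.90, -4.76 and -4.71, and only replicates 1 and 2 were well above background. All 8 other arrays were below that limit, from -6.60 to -5.17 in DDE and from -6.69 to -5.59 in DDE_PXM. The mean of all 4 control values as measured was set against the floor, the lowest value well above background on each array. It was 1.62-fold above the floor of DDE and 1.94-fold above that of DDE_PXM. These folds are no lower bounds, because control replicates 3 and 4 were themselves not well above background. Cd3g was not tested because the probe failed the filter on dim probes. Control replicate 1, at -2.44, was the highest of the 12.

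Lck is the kinase that phosphorylates the CD3 chains once the receptor is engaged. Its tested probe (A_55_P2155504, chr4:129225614-129225673, minus strand) read -0.12, -0.16, -0.15 and -0.09 in control, -0.91, -0.79, -0.74 and -0.84 in DDE, and -1.22, -1.08, -1.06 and -1.15 in DDE_PXM. The control arrays lay within 0.07 of each other, and no groups overlapped. Lck fell by 0.69 ± 0.05 (limma adjusted p = 8.49e-07), or 1.61-fold, in DDE, and by a further 0.31 ± 0.05 (adjusted p = 0.000408), or 1.24-fold, with must. The other Lck probe (A_55_P2506985, chr4:129229196-129229255) lies 3522 bases away and was well above background on 1 array only, DDE replicate 1, so it was not tested.

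CD8, the co-receptor of cytotoxic T cells, was not measurable. Both Cd8a probes (A_52_P150547, chr6:71323885-71323944, and A_52_P443334, chr6:71328911-71328970, plus strand) were below background on all 12 arrays, between -7.20 and -6.12. Cd8b1 (A_66_P122499, chr6:71286937-71286996), the beta chain, was well above background on 2 arrays only, DDE_PXM replicates 3 and 4, at -3.27 and -4.19. The remaining 10 arrays of Cd8b1 lay between -5.62 and -4.35. No change of CD8 between groups was therefore measured.

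**Figure D2:**
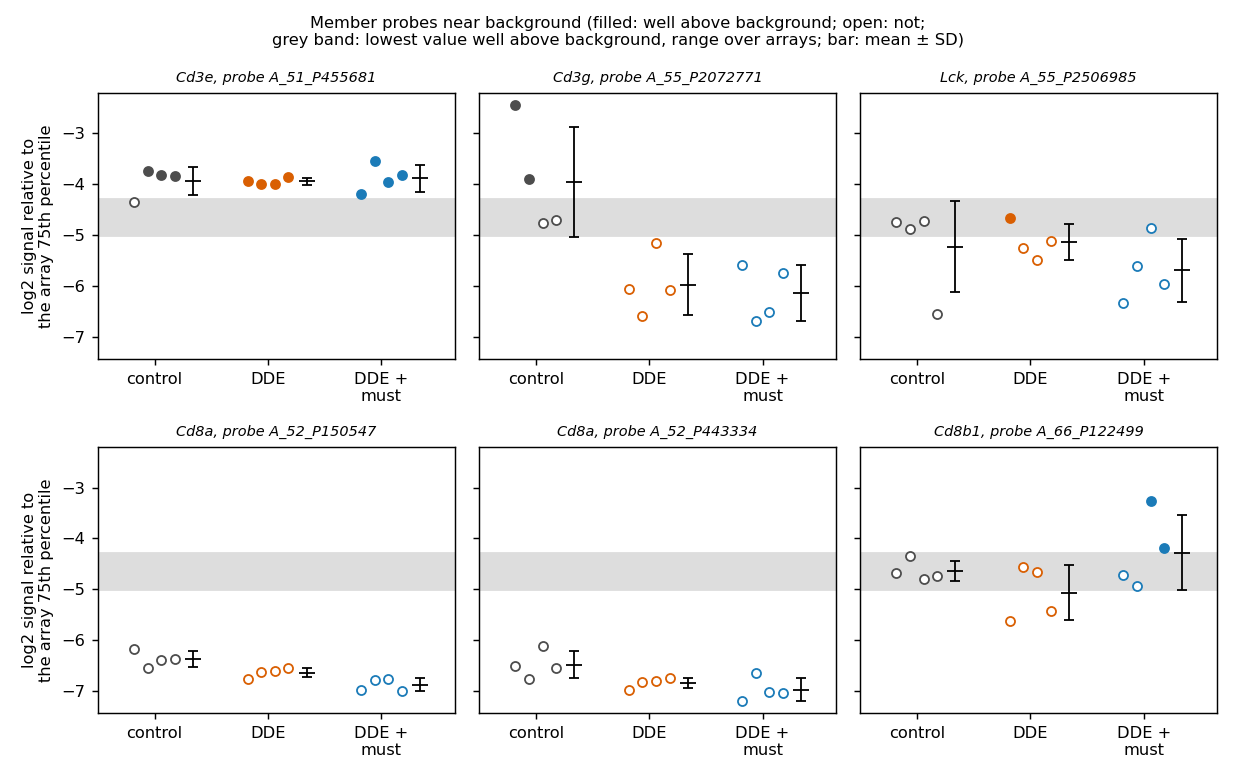
Values of 6 probes near background (Cd3e second probe, Cd3g, the dim Lck probe, both Cd8a probes and Cd8b1) on the same log2 scale, with filled points well above background, open points not, bars for mean ± SD over 4 arrays and a grey band for the lowest value well above background, from -5.02 to -4.29 over the arrays. The Cd8a points all lie below the band, Cd3g has 2 filled points, both in control, and Cd8b1 has 2, both in DDE_PXM.

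Gzma and Gzmb encode granzymes, the serine proteases that killer cells release into their targets. Gzma (A_55_P2094060, chr13:113884035-113884094, minus strand) read 1.04, 0.94, 0.91 and 0.68 in control, 0.47, 0.58, 0.69 and 0.50 in DDE, and -0.40, -0.60, -0.53 and -0.48 in DDE_PXM. Control replicate 4 and DDE replicate 3 overlapped, and the DDE_PXM arrays stood far below both groups. Gzma fell by 0.34 ± 0.08 (limma adjusted p = 0.00427), or 1.26-fold, in DDE, and by 1.06 ± 0.08 (adjusted p = 1.02e-06), or 2.09-fold, with must. The first of these calls was lost under median centring of the arrays, where the change was -0.10 (limma adjusted p = 0.297).

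Gzmb (A_51_P333274, chr14:56877916-56877975, minus strand) was dim, and 9 of its 12 values were well above background. It read -3.80, -4.13, -4.55 and -3.79 in control, -4.48, -4.52, -4.12 and -3.96 in DDE, and -5.06, -4.56, -4.97 and -4.65 in DDE_PXM. Control and DDE overlapped throughout, with a difference of -0.21 (95% interval -0.62 to 0.21, limma adjusted p = 0.392). Gzmb fell by 0.54 ± 0.19 with must (limma adjusted p = 0.0352), or 1.45-fold, but 10 of 22 alternatives lost that call. It was well above background on 3 control, 4 DDE and 2 DDE_PXM arrays. Gzmb thus passed the filter on dim probes only through DDE, the higher group of this comparison, which favours a fall. Leaving out DDE replicate 3 or 4, or DDE_PXM replicate 1 or 3, gave adjusted p between 0.0844 and 0.0987.

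Nkg7 encodes a granule membrane protein of NK and cytotoxic T cells. Its probe (A_52_P24447, chr7:50693482-50693541, plus strand) read -0.14, -0.19, -0.20 and -0.13 in control, -0.54, -0.72, -0.59 and -0.65 in DDE, and -1.21, -1.05, -0.99 and -1.0 in DDE_PXM. The groups did not overlap, and Nkg7 fell by nearly the same amount each time. The change was -0.46 ± 0.06 (limma adjusted p = 5.91e-05), or 1.37-fold lower, in DDE, and -0.44 ± 0.06 (adjusted p = 7.79e-05), or 1.36-fold lower, with must.

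Klrd1 encodes CD94, the partner that NKG2 receptors need to read MHC class I. Its probe (A_51_P280947, chr6:129548391-129548450, plus strand) read -2.42, -2.24, -2.24 and -2.22 in control, -3.29, -3.82, -3.10 and -3.11 in DDE, and -3.75, -4.04, -3.94 and -3.30 in DDE_PXM. All control arrays stood above all others, while DDE and DDE_PXM overlapped. Klrd1 fell by 1.05 ± 0.18 (limma adjusted p = 0.000524), or 2.07-fold, in DDE. The size of this fall depended on the scaling, with -0.97 to -0.46 under the 5 others, where Cd3d gave -0.89 to -0.67. With must the difference was -0.43 (95% interval -0.82 to -0.04, limma adjusted p = 0.0627), which missed the threshold. It was called without DDE replicate 2 (adjusted p = 0.00847) and without DDE_PXM replicate 4 (adjusted p = 0.0117).

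The sizes of both steps were compared within each gene, and genes were not tested against each other. The change from control to DDE was set against the change from DDE to DDE_PXM in the same limma fit. This contrast was added after the data were seen, and 22.3% of all genes tested were called in it. The DDE arrays enter both steps with opposite signs. Lck lost more in the first step, 69.3% of its total fall (difference of the steps -0.38, adjusted p = 0.00798), and Gzma more in the second, with 24% of its fall in the first (difference 0.73, adjusted p = 0.00261). Both calls held under all 26 alternatives. Cd3d leaned the same way as Lck, with 62.3% in the first step (adjusted p = 0.0472), but lost the call under 17 of 26 alternatives.

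The steps of Klrd1, Nkg7, Gzmb and Cd3e were not called different in size. Klrd1 had 70.9% of its fall in the first step (difference -0.62, adjusted p = 0.185) and Nkg7 51% (difference -0.02, adjusted p = 0.926). For Gzmb the difference was 0.33 (adjusted p = 0.535) and for Cd3e -0.06 (adjusted p = 0.893), both from limma. These p-values do not show that the steps were equal.

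**Figure D3:**
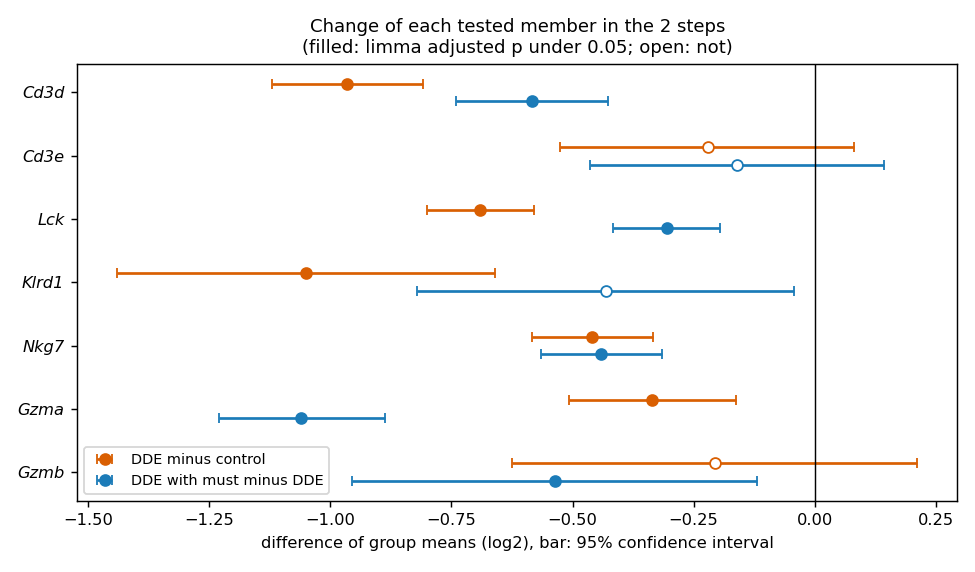
Difference of group means (log2) with its 95% confidence interval for each tested marker, DDE minus control and DDE_PXM minus DDE, filled where limma's adjusted p was under 0.05. Lck has the longer first step (-0.69 against -0.31), Gzma the longer second step (-1.06 against -0.34), and the intervals of Cd3e cross 0 in both.

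Arrays lay on 5 slides, and 3 slides held both groups of each comparison. Within slides Cd3d changed by -1.08 to -0.98 and Lck by -0.73 to -0.58 from control to DDE, and by -0.68 to -0.41 and -0.43 to -0.24 from DDE to DDE_PXM. Nkg7 changed by -0.52 to -0.40 and by -0.50 to -0.40, and Gzma by -0.54 to -0.25 and by -1.22 to -0.95. Klrd1 ranged from -1.58 to -0.69 in the first step and from -0.84 to 0.07 in the second. Each of Cd3d, Lck, Nkg7 and Gzma thus had its direction on every slide that held both groups.

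Across the 12 arrays the 7 markers moved together, with a median Pearson r of 0.78 over 21 pairs and a lowest of 0.47, which the difference between groups gives them. After the group means were taken away, the median r over the same pairs was 0.07, and 12 of 21 were above 0. Arrays of 1 group thus showed little shared rank of T and NK markers. These correlations are descriptions over 12 arrays that share their scaling.

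The rest of the T cell receptor machinery was followed through a list of 22 signalling genes, 16 of them tested, none of which is a marker above. Beside this and the later lists, 26.3% of all genes tested were called lower and 24% higher in DDE. With must 29.7% were called lower and 20.2% higher. In DDE 11 fell and none rose, with a median change of -0.64. Cd2, an adhesion receptor of T and NK cells, was 1.83-fold lower (limma adjusted p = 2e-06), and Zap70, the kinase that binds phosphorylated CD3 chains, 1.95-fold lower (adjusted p = 3.6e-05). Rhoh and Skap1, which carry the signal further, were 1.54-fold and 1.86-fold lower, and the co-receptor gene Cd4 was 1.62-fold lower (limma adjusted p = 0.00301). The Cd4 probe was bright for whole liver, with means of 5.64 in control and 4.95 in DDE. Whether that signal came from T cells was not tested. Cd247, the zeta chain of the receptor and of NK receptors, was not called (-0.32, adjusted p = 0.305).

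With must 7 of the 16 signalling genes fell and 1 rose, with a median of -0.24. Cd247 was among those that fell, by 1.64-fold (limma adjusted p = 0.0311, called under 4 of 5 other scalings), with Rhoh (1.31-fold, adjusted p = 0.000417), Lcp2 (1.35-fold) and Zap70 (1.28-fold, adjusted p = 0.0199, a call kept under 1 of 5 other scalings). Cd5, an inhibitor of receptor signalling, was the one called higher, by 1.27-fold (adjusted p = 0.0127), but it turned below 0 under 1 of 5 other scalings. The counts in this second step depended on the scaling, with 2 to 9 signalling genes called lower under the 5 others. Cd4 missed the threshold (-0.39, adjusted p = 0.0549).

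Genes of T cell identity and homing came next. Of 13 tested, 10 fell in DDE and none rose, with a median of -0.47, and 5 to 10 fell under the other scalings, Tcf7 in 1 of 5. Il7r, the survival receptor of resting T cells, was 1.66-fold lower (limma adjusted p = 1.87e-05), Ikzf3 and Satb1, both nuclear regulators of lymphocytes, 1.83-fold and 1.82-fold, and Il2ra 2.2-fold (adjusted p = 0.000298). Il2ra was well above background on 4 control, 3 DDE and 3 DDE_PXM arrays. It passed the filter on dim probes only through control, its highest group, which favours this fall. With must 3 of the 13 fell and 2 rose (3 to 5 lower and 0 to 3 higher under the other scalings), with Il7r 1.53-fold and Ikzf3 1.82-fold lower. Over all genes tested 29.7% fell and 20.2% rose in this step, so the 3 and 2 do not set the list apart. Tcf7 and Lef1, transcription factors of resting T cells, rose by 1.2-fold (adjusted p = 0.0323) and 1.27-fold (adjusted p = 0.0459), called under 4 and 3 of 5 other scalings. Foxp3, Bcl11b and Cd40lg were not well above background on any array.

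Effector genes of NK and cytotoxic cells gave 6 falls and no rise among 11 tested in DDE, and 6 falls and 1 rise with must. Gzmm, a further granzyme, was 1.85-fold lower in DDE (limma adjusted p = 0.000168), Ctsw, a protease of NK and CD8 T cells, 1.48-fold (adjusted p = 0.000103), and the chemokine gene Ccl5 1.23-fold (adjusted p = 0.00232). With must Ccl4 was 1.72-fold lower (adjusted p = 3.93e-05), Xcl1 1.76-fold, Ccl5 1.3-fold and Gzmm 1.31-fold, the last called under 1 of 5 other scalings. Prf1, which encodes the pore-forming perforin, was not called in either step (-0.41, adjusted p = 0.0847, and -0.27, adjusted p = 0.24). Under median centring 2 of the 11 were lower and 2 higher in DDE. The called rise with must was Id2, at 1.56-fold, and Id2 is also made by other liver cells. Ifng, Fasl, Gzmk, Gzmc and Eomes were not well above background on any array.

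NK receptors and their adaptors mostly fell in both steps. Of 15 tested, 11 fell in DDE and 13 with must, with medians of -0.56 and -0.65. Klra1, Klra4 and Klra7, of the Ly49 receptors for MHC class I, were 1.93-fold, 1.65-fold and 1.72-fold lower in DDE, and 1.57-fold, 2.41-fold and 2.55-fold lower with must (limma adjusted p between 1.99e-06 and 0.000287). Ly49 genes are near-identical copies whose number differs between mouse strains, so a probe may read several of them. Klrk1 (NKG2D) was 1.82-fold and then 1.48-fold lower, and the adaptors Tyrobp, Fcer1g and Hcst were 1.43-fold, 1.27-fold and 1.48-fold lower in DDE and 1.68-fold, 1.44-fold and 1.51-fold lower with must. Tyrobp and Fcer1g also serve myeloid cells.

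Klrb1c (NK1.1) fell by 0.69 (limma adjusted p = 0.00482) and by a further 0.50 (adjusted p = 0.0273), though only 8 of its 12 values were well above background and the second call held under 1 of 5 other scalings. Klrb1c passed the filter on dim probes only through control, its highest group, which favours its first fall. Ncr1 (NKp46), a receptor largely kept to NK cells, was not called in DDE (-0.10, adjusted p = 0.65) and was 1.71-fold lower with must (adjusted p = 0.00254). Itga1, an integrin of resident NK-related cells that sinusoidal endothelium also carries, was the single gene of this list called higher, by 1.19-fold and 1.27-fold, and is named after its values were seen. Klrg1, an inhibitory receptor also named after its values were seen, was well above background on the 4 DDE arrays only. Klrg1 passed the filter on dim probes only through DDE, its highest group, and the filter thus favoured a peak there. Its DDE values were at least 1.33-fold above control, which was not called (limma adjusted p = 0.0661, called under 4 of 5 other scalings). With must it was at least 1.94-fold lower (adjusted p = 0.000861), a call that is among the falls with must counted above. Both p-values rest on values not well above background outside DDE. These directions of Klrb1c, Itga1 and the Klra genes were the same under the 5 other scalings.

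The MHC class I molecules that such receptors read went the other way in DDE. Of 12 tested genes 10 rose and 1 fell, with a median of 0.24, and 9 to 11 rose under the other scalings. Tapbp, which loads peptide onto class I, rose by 1.56-fold (limma adjusted p = 3.68e-06), Erap1, which trims those peptides, by 1.5-fold, and the peptide transporter Tap1 by 1.36-fold (adjusted p = 0.000768). Nlrc5, an activator of class I genes, fell by 1.3-fold. With must the median was -0.01, with 2 called in each direction, and 4 to 7 rose under the other scalings. Most liver cells make class I, so these genes do not mark T or NK cells.

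Chemokines and cytokines that draw or feed these cells, with their receptors, gave 9 falls and 1 rise among 15 tested in DDE, and 12 falls and 1 rise with must. Under the 5 other scalings 5 to 8 were lower and 1 to 3 higher in DDE, and 7 to 12 lower and 1 to 2 higher with must. Cxcr6, which holds T and NK cells in the sinusoids, fell by 2.7-fold in DDE (limma adjusted p = 6.92e-06) and by 1.65-fold with must (adjusted p = 0.001). Its ligand Cxcl16 was level in DDE (0.10, adjusted p = 0.126) and 1.47-fold lower with must. Il15 and Il18, cytokines that sustain and activate NK cells, were 1.78-fold and 1.87-fold lower in DDE. Cxcl10 opposed the rest, at 3.5-fold higher in DDE (adjusted p = 7.34e-10) and then 1.57-fold lower with must. Cxcl9, its close relative, was not called in DDE (0.01, adjusted p = 0.936) and rose by 1.11-fold with must (adjusted p = 0.0374).

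Markers of several other cell types moved with the T and NK markers, those of others did not, and their part in the result was not tested. Over all genes tested 26.3% fell and 24% rose in DDE, and 29.7% fell and 20.2% rose with must. Monocyte and dendritic cell genes fell in 2 of 7 in DDE, and 2 fell and 2 rose with must. Those falls were near the shares over all genes. Cholangiocyte genes rose in 1 of 5 in DDE and in 3 with must, and none fell. Krt7, among those 3, was well above background on the 4 DDE_PXM arrays only. It passed the filter on dim probes only through DDE_PXM, its highest group, which favours its rise. Adipocyte genes fell in 4 of 7 and rose in 1 in DDE, and fell in 1 and rose in 3 with must. B and plasma cell genes fell in 6 of 7 in DDE and in 3 of 7 with must, with Jchain 3.01-fold and 2.18-fold lower (5 to 6 and 1 to 4 lower under the other scalings). Their summed level, relative to the 75th percentile, was 8.64 to 9.24 in control, 5.04 to 5.48 in DDE and 4.01 to 4.71 in DDE_PXM. The summed level of the 7 tested T and NK markers went from 5.14 to 5.85 in control to 3.71 to 4.20 in DDE and 2.60 to 2.88 in DDE_PXM. General leukocyte genes fell in 7 of 12 and rose in 1 in DDE (sum 27.3 to 27.7 in control, 21.4 to 22.1 in DDE), and fell in 6 and rose in 1 with must (sum 16.0 to 16.7). Under the other scalings 4 to 7 of them were lower and 1 to 2 higher in DDE, and 4 to 6 lower with must.

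Kupffer cell genes fell in 9 of 11 in each step, with Marco 1.96-fold lower in DDE and C1qb 1.38-fold lower with must. Their sum was 67.3 to 71.4 in control, 54.0 to 60.1 in DDE and 41.8 to 46.0 in DDE_PXM, and under median centring the count in DDE dropped to 1. Neutrophil genes fell in 4 of 8 and rose in 1 in DDE, and fell in 7 of 8 with must, with S100a8 5.77-fold and S100a9 5.48-fold lower in the second step. Under the other scalings 1 to 5 neutrophil genes were lower and 1 to 3 higher in DDE, and 7 to 8 lower with must. Of 12 hepatocyte genes 1 fell and 2 rose in DDE (median -0.05), and 5 fell and 2 rose with must. Their balance turned with the scaling, with up to 7 higher in DDE (median up to 0.18), and with must 0 to 4 lower and 2 to 5 higher (median up to 0.13). The 8 endothelial genes had limma adjusted p between 0.0859 and 0.726 in DDE, and under the other scalings up to 3 of them were called lower and up to 6 higher, the 6 under median centring.

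Genes of tissues outside the liver also differed between groups. Muscle genes fell in all 8 in DDE and in 7 with must (5 to 7 under the other scalings; sum 233 to 242 in control, 90.0 to 101 in DDE and 68.0 to 75.6 in DDE_PXM). Adrenal cortex genes fell in all 7 in DDE and rose in all 7 with must (sum 25.7 to 27.8, 2.35 to 2.53 and 43.9 to 48.6). Pancreatic acinar genes fell in 5 of 7 in DDE (3 to 6 under the other scalings) and rose in all 7 with must (sum 411 to 445, 318 to 358 and 1407 to 1453). Stromal genes of lymphoid tissue fell in 2 of 4 in DDE, Ccl21a by 1.78-fold and Ccl19 by 1.54-fold, and Ccl19 alone with must, by 1.16-fold. Cxcl13 of that list stayed below the detection limit on all 12 arrays. The part that such tissue had in the T and NK marker values was not tested.

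**Figure D4:**
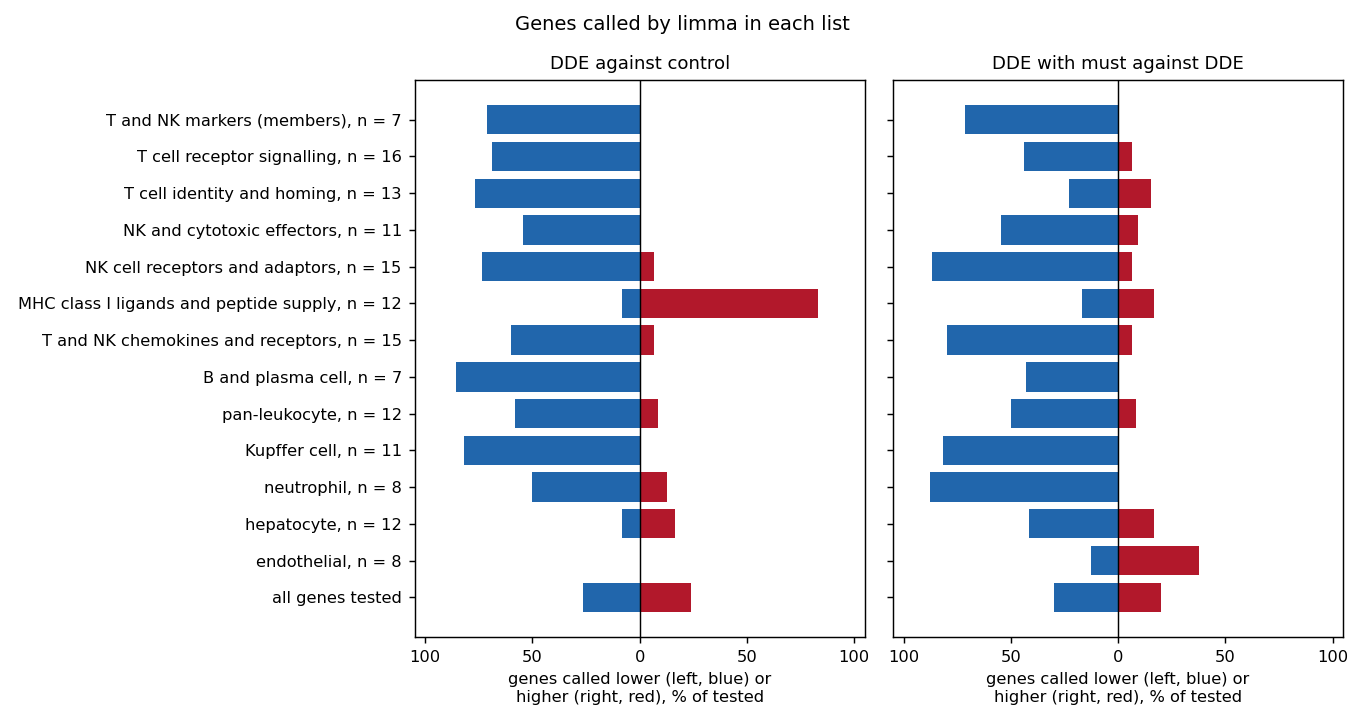
Percent of the tested genes of each list that limma called lower (left, blue) or higher (right, red), for DDE against control and DDE_PXM against DDE, with n tested beside each name and all genes tested at the bottom. Bars for most T and NK lists run mainly to the left in both panels. T cell identity and homing does so only in DDE against control, with 3 of 13 lower and 2 higher in DDE_PXM against DDE. MHC class I runs to the right in DDE against control (10 of 12).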

How the data were processed

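Liver RNA was hybridised to 12 Agilent arrays in 1 colour (Cy3), 4 per group, per the labels. The deposited scanner files hold a processed signal, an intensity for each spot after spatial and multiplicative detrending, per the file headers. Feature Extraction 11.5.1.1 from Agilent, RMA and limma are the tools in the submitters' processing notes. The authors also deposited log2 values of the same arrays, whose steps no source used here gives in full, and these served as an alternative.

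Control spots (3671 of 62976) and spots marked as outliers (102 to 177 per array) were left out. Values are log2 intensity minus the array's log2 75th percentile, spots of a probe were averaged, probes that every array of 1 or more groups detected well above background were kept (27098 of 56605), and the brightest kept probe stood for a gene. Genes were tested with limma 3.58.1 in R 4.3.3 (files read with the data.table package, version 1.17.8) in 1 fit over 12 arrays with 9 residual degrees of freedom, and p-values were adjusted over 18678 genes. Where a probe was below background on all arrays of the dimmer group, the fold is a bound against the floor, the lowest value well above background on each array. For Cd3g that fold is no bound, because part of the brighter group was not well above background either. Coordinates and gene names are those of the scanner files (mm9), and a genome was not used here. Summed levels are sums of 2 to the power of these values over a list's tested genes.

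The members and gene lists were chosen with earlier results of these data known. All members are named, and from each pathway list up to 5 genes with the smallest p per comparison (3 from each cell type list), or set to be named whatever their values (Cd4, Cd247, Zap70, Prf1, Ncr1, Ccl5, Klrb1c, Cxcl9 and Cxcl10). Not every gene that rule gives is printed, and 1 is not reported here. Replicate numbers did not pair arrays: deviations of same-numbered arrays from their group means correlated between -0.368 and 0.132, and 0 of 12 arrays correlated best with its own number. No arrays were identical (highest correlation 0.99743). The fit was tested on simulated data. Alternatives were other background corrections (normexp, offset 50), scalings, filters and probe choices, moderation with a trend, array weights, blocks for slide or replicate number, the groups in the fit, and each array left out.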

Additional observations from a re-analysis of the deposited data

Results flagged for a closer look

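In 27 groups of 4 values of the member probes, 2 had an array farther from the rest than Dixon's 95% critical value of 0.829 allows, where chance gives about 1 in 20 groups. Both arrays are control replicate 1, and both are the lowest of their group. Klrd1 read -2.42 there, against -2.24 to -2.22 on the other control arrays, and still stood above every DDE and DDE_PXM array. The dim second Cd3e probe read -4.36 there, the only array on which it was not well above background, against -3.84 to -3.74 on the others. The tested Cd3e probe was highest on the same array, at 0.22.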

How the results depend on the processing

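Counts of tested markers called lower stayed within 1.5 times of the reported ones under every alternative run. They were 4 to 7 in DDE against control (5 reported), 4 to 6 in DDE_PXM against DDE (5 reported) and 5 to 9 in DDE_PXM against control (7 reported), and none was called higher in any. The lowest counts include median centring and the highest 7 and 9 came without the filter on dim probes, where all 10 genes are tested. The calls added there are of Cd3g, Cd8a or Cd8b1, at or near background, so they do not measure a fall of these genes. Without that filter 26.6% of 37074 genes were called lower in DDE against control (median -0.186). In DDE_PXM against control 43.2% were (median -0.385). Of 661 changes of single markers over all alternatives, 608 kept their direction and their side of the threshold.

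Values that turned sign were small. In DDE against control Cd3e was 0.01 under median centring, and Gzmb was 0.017 under quantile normalisation, 0 with normexp and quantile together and 0.025 under median centring. For the difference of steps, Cd3e was 0.027 under median centring and 0.15 with array weights, and ranged from -0.195 to 0.169 with 1 array left out, turning without control replicate 1 (0), DDE replicate 1 or DDE_PXM replicate 3 (0.032). For Nkg7 it was 0.07 under median centring, and ranged from -0.074 to 0.044 with 1 array left out, turning without DDE replicate 2, DDE_PXM replicate 3 or DDE_PXM replicate 4. Gzmb in DDE_PXM against control was lost under quantile normalisation (limma adjusted p = 0.104) and median centring (0.0864).

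Scaling set the balance of all genes. Median centring moved the median change from -0.02 to 0.21 in DDE against control and from -0.04 to 0.10 in DDE_PXM against DDE, and the medians of the tested markers there were -0.23 and -0.30. Genes called higher and lower went from 4482 and 4921 to 9019 and 2078 in DDE against control. In DDE_PXM against DDE they went from 3781 and 5539 to 6476 and 3295 under median centring, 4791 and 4392 under quantile normalisation, 4841 and 4362 with normexp and quantile together, and 4541 and 4094 in the deposited values. In DDE_PXM against control they went from 5893 and 7349 to 10315 and 3802 under median centring. Of 660 counts for lists under the 5 other scalings, 524 were within 1.5 times.

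With the replicate number as a block, although the numbers do not pair the arrays, 5, 6 and 6 markers were called lower in the 3 comparisons. Of all 18678 genes tested, 24.8%, 27.6% and 38.5% were called lower in the same fits. Klrd1 was then called in DDE_PXM against DDE (limma adjusted p = 0.0391) and Cd3e was lost in DDE_PXM against control (adjusted p = 0.0542). Signal over background limits Gzmb, Cd3g, Cd8a and Cd8b1.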

Other observations

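Over the 12 arrays, the genes whose pattern was most like the mean of the 7 tested markers, among 13962 other named genes, were Kank3 (Pearson r = 0.9923), Pycard (0.9922), Pcp4l1, Fibin, Cyp2c67, Smim11, Klra2 (0.9888), Ang6, Lce1a1 and Clec12a (0.9882). Klra2 is a Ly49 receptor of NK cells, and Pycard and Clec12a are genes of myeloid cells. With the group means taken away, the nearest were Krtap9-1 (r = 0.9458), H2afy3, Wfdc12, Mdn1, Tmem79, Iqgap2, Ttc27, Arhgap17, Nms and Xcl1 (0.8518), the last a chemokine of NK and CD8 T cells. All 12 points share their scaling, and the first ranking follows the group means.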
